A study of Mus musculus with 10 samples.

Results

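A group of 9 genes of cellular iron handling was followed in bEnd.3 cells, an immortalized mouse brain endothelial line, after treatment with StcE, a bacterial mucinase that cleaves mucin-domain glycoproteins. The genes were taken by name from the deposited expression table, and all 9 (*Fth1*, *Ftl1*, *Tfrc*, *Slc40a1*, *Slc11a2*, *Aco1*, *Ireb2*, *Ncoa4* and *Steap3*) were found among its 27024 named rows. Of these, 7 reached the mean FPKM of at least 1 (fragments per kilobase of gene, scaled to depth by the authors) that was needed for testing, and *Slc40a1* and *Steap3* did not. The question was how the loss of surface mucin domains was accompanied by changes in the mRNAs of these genes.

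The study held 10 bulk RNA-seq samples. Wild-type bEnd.3 cells received 5 nM StcE (5 samples, replicates 1, 2, 3, 5 and 6) or the same volume of saline (5 samples, replicates 1, 2, 3, 4 and 5) for 16 h. Both groups were kept in DMEM with high glucose and fetal bovine serum. The samples all come from 1 established cell line grown without the other cells of the vessel wall, and the labels do not say whether replicates were separate cultures, so the p-values measure the spread between these samples, which may be technical.

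The number of fragments behind the values was recovered from the FPKM and ranged from 21918326 to 29011314 in saline samples and from 21859342 to 33140289 in StcE samples. All 8 endothelial markers had a mean FPKM of at least 1, with a summed level of 1631 to 1770 FPKM with saline and 1558 to 1647 with StcE. No pericyte, astrocyte, microglial or neuronal marker with a row reached a mean FPKM of 1, and *Pdgfra* was the only fibroblast marker that did. Fewer cells of a type and less RNA per cell cannot be told apart in bulk samples.

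Cells take up most of their iron as iron-loaded transferrin, which the transferrin receptor carries into endosomes. There the iron is reduced and moved to the cytosol by the transporter DMT1 (encoded by *Slc11a2*). Iron that is not used is stored inside ferritin shells or leaves the cell through ferroportin. Brain endothelial cells do both, since iron must cross them to reach the brain. When cytosolic iron is scarce, the iron regulatory proteins IRP1 and IRP2 bind iron-responsive elements, short RNA hairpins. Binding in a 5′ untranslated region (UTR) blocks translation, as in the ferritin mRNAs, whereas binding in the 3′ UTR of the transferrin receptor mRNA protects that mRNA from decay. In these samples mRNA levels were measured, and translation was not.

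The hairpin letters are shown as a strict pattern of the iron-responsive element, which does not mark every mRNA described to carry one. In GENCODE vM21 transcripts on GRCm38, UTRs were searched on the transcript strand for a C, 5 bases, the loop CAGTGN and 5 bases able to pair with the first 5. Of the 9 genes, 4 held such letters. In the lines that follow, each sequence is written 5′ to 3′ as DNA with the 6 loop letters in capitals.
*Fth1* 5′ UTR, chr19:9982733-9982759, plus strand: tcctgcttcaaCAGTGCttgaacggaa
*Ftl1* 5′ UTR, chr7:45459780-45459806, minus strand: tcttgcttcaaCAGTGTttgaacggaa
*Slc40a1* 5′ UTR, chr1:45925466-45925492, minus strand: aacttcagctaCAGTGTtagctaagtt
*Tfrc* 3′ UTR, chr16:32631220-32631246, plus strand: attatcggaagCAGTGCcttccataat
*Tfrc* 3′ UTR, chr16:32631599-32631625, plus strand: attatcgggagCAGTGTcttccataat
*Tfrc* 3′ UTR, chr16:32631664-32631690, plus strand: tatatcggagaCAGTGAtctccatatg
*Tfrc* 3′ UTR, chr16:32631711-32631737, plus strand: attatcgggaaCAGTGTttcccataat

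The 4 matches of *Tfrc* began at bases 889, 1268, 1333 and 1380 of a 3′ UTR of 2458 bases. Such letters were found in the 5′ UTR of 31 of 20597 genes (0.151%) and in the 3′ UTR of 129 of 20979 genes (0.615%). The loop letters CAGTG alone occurred in 34.3% and 69.4% of these genes. A match is a description of the reference and not a measured binding site. The lack of a match in *Slc11a2*, *Aco1*, *Ireb2*, *Ncoa4* and *Steap3* says only that these letters are not in their annotated UTRs. It does not say that the iron regulatory proteins leave these mRNAs unbound. The letters were also missing from *Epas1*, *Cdc42bpa* and *Cdc14a*, whose mRNAs are described to carry an iron-responsive element.

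**Figure D1:**
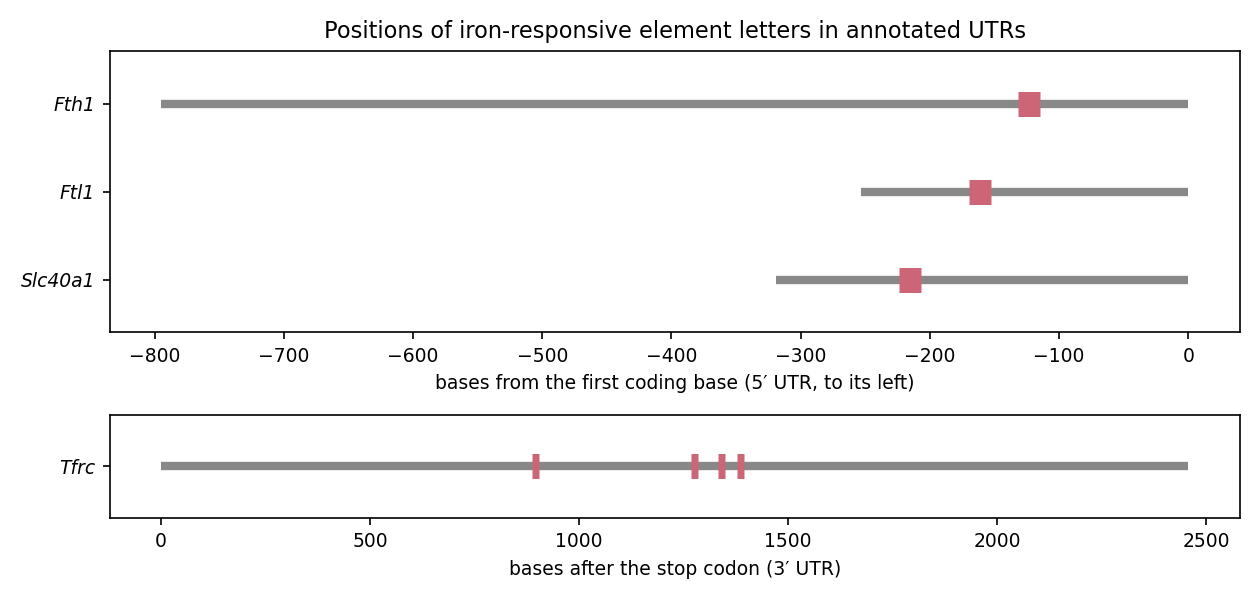
Positions of the iron-responsive element letters (red) in the annotated UTRs (grey) of 4 genes, in bases from the first coding base for the 5′ UTRs of *Fth1*, *Ftl1* and *Slc40a1* and in bases after the stop codon for the 3′ UTR of *Tfrc*. The first 3 genes have 1 match each and *Tfrc* has 4, at bases 889, 1268, 1333 and 1380 of the 2458. For *Fth1* the 5′ UTR drawn, of 795 bases, belongs to a transcript of 1494 bases and not to the principal mRNA of 929 bases.

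Treatment with StcE was accompanied by more mRNA for the transferrin receptor and, by a smaller margin, for IRP1, while the ferritin chains, DMT1, IRP2 and the ferritinophagy receptor NCOA4 did not pass the test. In limma, 2 of the 7 tested genes (28.6%) were past an adjusted p of 0.05, both higher with StcE, against 11.9% of the 11062 genes tested in either direction and 5.52% in the higher direction. Values of the StcE and saline groups did not overlap for the same 2 genes, against 10.7% of all genes tested. The median log2 fold change of the 7 was 0.09, and that of all genes tested was -6.6e-04. With so few genes these shares are descriptions. At an unadjusted p under 0.05 the counts were 4 of 7 and 27.8% of all genes tested. Among all genes past the threshold 46.3% were higher with StcE (611 higher, 709 lower), a share that became 81.8% when samples were scaled by their upper quartile, which shifted the median of all genes by 0.04 on the log2 scale.

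**Figure D2:**
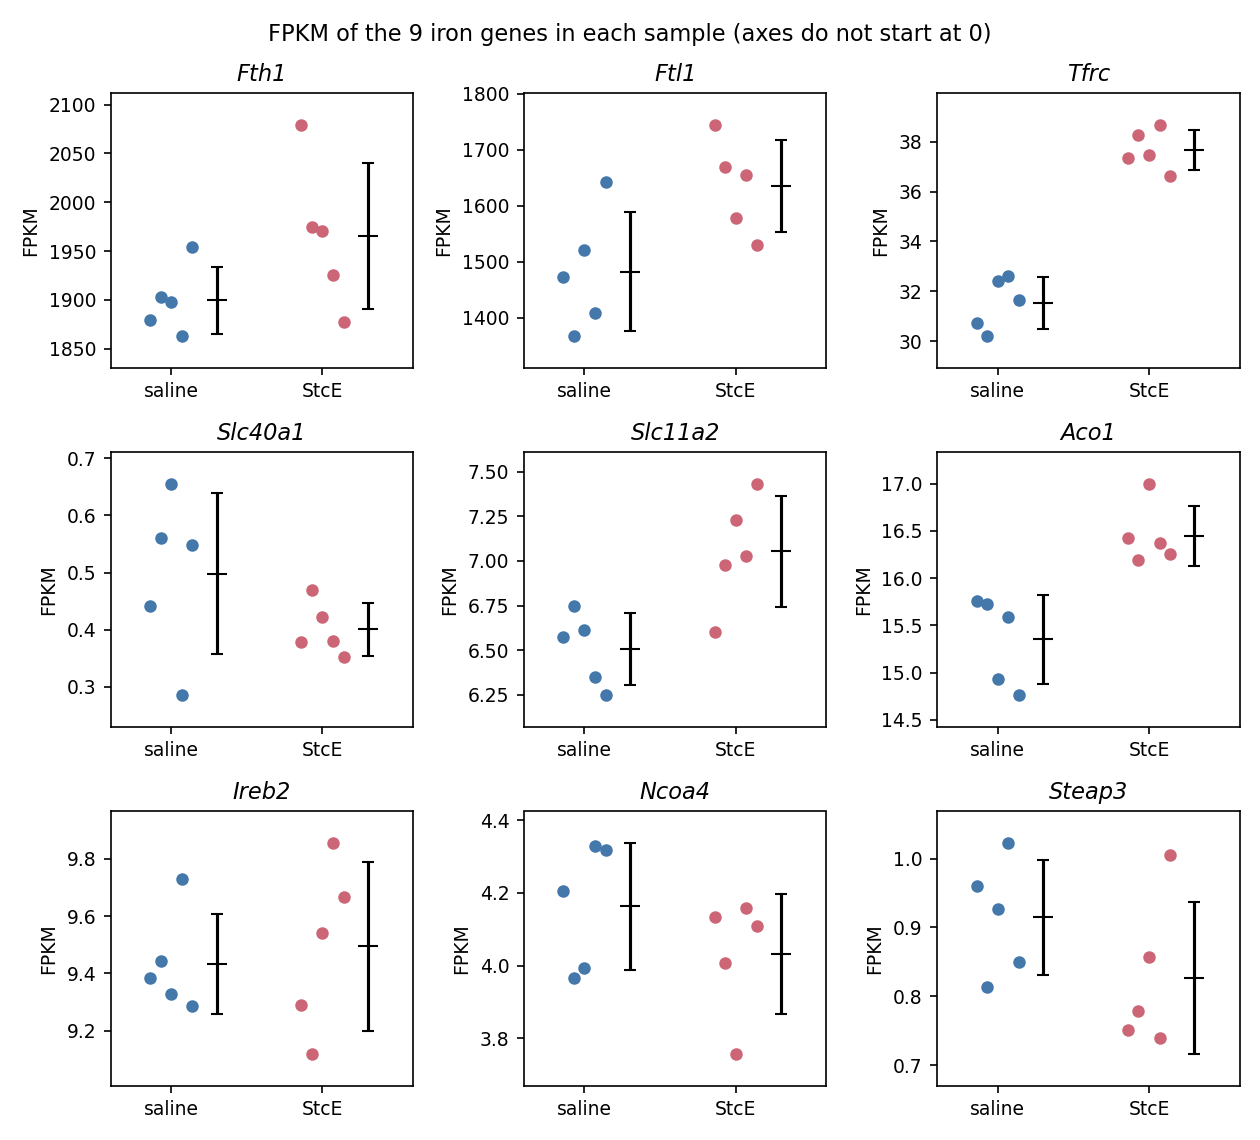
FPKM of the 9 iron genes in each of 5 saline (blue) and 5 StcE (red) samples, with the mean and SD of each group in black and a separate axis, not starting at 0, for each gene. The groups stand apart for *Tfrc* (30.2 to 32.6 with saline, 36.6 to 38.7 with StcE) and *Aco1* (14.8 to 15.8 and 16.19 to 16.996) and overlap for the other 7.

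The transferrin receptor gene *Tfrc* (ENSMUSG00000022797, chromosome 16, 32608920 to 32632794, plus strand) is the main door for iron into most cells and a known marker of brain capillary endothelium. Its FPKM was 30.7, 30.2, 32.4, 32.6 and 31.7 in the saline samples and 37.3, 38.3, 37.5, 38.7 and 36.6 in the StcE samples. Every StcE sample was above every saline sample, and the gap between the groups was wider than the range within either. The mean rose from 31.5 ± 1.05 (SD, n = 5) to 37.7 ± 0.801 FPKM (SD, n = 5), or by 19.5%. On log2(FPKM + 1), a scale that understates changes little at this level and strongly for genes near or below 1 FPKM, the fold change was 0.25 (SE 0.0267, 95% interval 0.19 to 0.31, limma adjusted p = 0.000171). The exact two-sided permutation test gave p = 0.00794, the smallest value that 5 against 5 samples allow. Between 4629 and 8375 fragments per sample lay behind these values. By p-value *Tfrc* stood at position 65 of the 11062 genes tested, and by size of increase at position 288. It was past the threshold in all 22 alternative analyses, with fold changes of 0.23 to 0.30 on the log2 scale.

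*Slc11a2* (ENSMUSG00000023030, chromosome 15, 100387898 to 100425072, minus strand) encodes DMT1, which moves ferrous iron out of the endosome. Its FPKM was 6.57, 6.75, 6.61, 6.35 and 6.25 with saline and 6.60, 6.98, 7.23, 7.03 and 7.43 with StcE. Only StcE replicate 1 lay inside the saline range, and the other 4 StcE samples were above it. The means were 6.51 ± 0.203 and 7.05 ± 0.309 FPKM, a log2 fold change of 0.10 (95% interval 0.03 to 0.17) that did not pass the test (limma adjusted p = 0.0721). Without StcE replicate 1 the fold change was 0.12 and the limma adjusted p was 0.0381. With any other single sample left out the limma adjusted p was 0.0716 to 0.156. An overlap with *Gm5475* on the opposite strand covers 6.33% of its exon length.

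*Steap3* (ENSMUSG00000026389, chromosome 1, 120190757 to 120272705, minus strand), the endosomal reductase that prepares iron for DMT1, was too low to enter the fit. It had 0.961, 0.814, 0.926, 1.02 and 0.850 FPKM with saline and 0.751, 0.779, 0.858, 0.739 and 1.01 with StcE. The group ranges overlapped through StcE replicates 3 and 6, and the log2 difference of -0.07 gave an exact permutation p of 0.190. Without the pseudocount the log2 ratio of the means was -0.15. Without StcE replicate 6 the difference on log2(FPKM + 1) was -0.10 with an exact permutation p of 0.0476. With any other single sample left out the exact permutation p was 0.119 to 0.357. From 101 to 170 fragments per sample were behind these values.

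Neither ferritin chain passed the test. Ferritin is a shell of heavy chains, which oxidize iron, and light chains, which help to build its mineral core. The heavy chain gene *Fth1* (ENSMUSG00000024661, chromosome 19, 9980598 to 9985098, plus strand) had 1879, 1903, 1898, 1863 and 1954 FPKM with saline and 2079, 1975, 1971, 1926 and 1878 with StcE. StcE replicate 1 was the highest sample, and StcE replicates 5 and 6 lay among the saline samples. The means, 1899 ± 34.6 and 1966 ± 74.7 FPKM, differed by 0.05 on the log2 scale (SE 0.0294, 95% interval -0.02 to 0.11, limma adjusted p = 0.313).

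The light chain gene *Ftl1* (ENSMUSG00000050708, chromosome 7, 45457944 to 45459884, minus strand) had 1473, 1368, 1521, 1409 and 1642 FPKM with saline and 1744, 1669, 1579, 1655 and 1531 with StcE. The ranges overlapped, since saline replicate 5 was above 2 of the 5 StcE samples and the other saline samples were below all of them. The means were 1483 ± 107 and 1635 ± 82.7 FPKM (10.3% higher with StcE), with a log2 fold change of 0.14 (SE 0.0504, 95% interval 0.03 to 0.25, limma adjusted p = 0.0902, exact permutation p = 0.0397). Without saline replicate 5 the fold change was 0.18 and the limma adjusted p 0.0265. With any other single sample left out the limma adjusted p was 0.0618 to 0.184.

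The values of *Ftl1* may be shared with copies of the gene. Stretches of 150 bases or more of its transcript match 7 other genes with an identity of 95% or more. Together these matches cover 100% of the transcript. Of the 7 genes 1, *Gm10252*, overlaps *Ftl1* itself on the opposite strand. How fragments matching several copies were counted is not given in the sources used here. The most abundant copy, *Ftl1-ps1*, was listed at a mean of 38.4 FPKM with saline and 44.3 with StcE, and *Gm15590* at 7.99 and 13.0. Of the exon length of *Ftl1*, 8.13% overlaps *Gm22133* on the same strand and 26.5% overlaps *Gm10252* on the opposite strand.

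*Ncoa4* encodes the receptor that delivers ferritin to lysosomes so that its iron can be reused. The gene (ENSMUSG00000056234, chromosome 14, 32159865 to 32179855, plus strand) had 4.21, 3.97, 3.99, 4.33 and 4.32 FPKM with saline and 4.13, 4.01, 3.76, 4.16 and 4.11 with StcE. StcE replicate 3 was the lowest sample, and the other 4 StcE samples lay within the saline range. The means of 4.16 ± 0.174 and 4.03 ± 0.165 FPKM gave a log2 difference of -0.04 (95% interval -0.11 to 0.04, limma adjusted p = 0.549). A near-identical copy in the processed pseudogene *Gm6768* covers 46.2% of its transcript, and that copy was listed at 18.9 and 19.5 FPKM, above *Ncoa4* itself.

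Ferroportin, the one known exporter of cellular iron, is encoded by *Slc40a1* (ENSMUSG00000025993, chromosome 1, 45908068 to 45926523, minus strand), which had the lowest FPKM of the 9 genes. Its FPKM was 0.442, 0.561, 0.655, 0.286 and 0.549 with saline and 0.378, 0.470, 0.423, 0.381 and 0.352 with StcE. The saline samples spread widely, from the lowest value of all 10 to the highest, and enclosed all 5 StcE samples. The means were 0.498 ± 0.141 and 0.401 ± 0.0464 FPKM, from 59 to 157 fragments per sample, and the exact permutation p of their log2 difference (-0.09 on log2(FPKM + 1)) was 0.198. The pseudocount mutes this difference, which was -0.23 with a pseudocount of 0.1 (exact permutation p = 0.246), and the log2 ratio of the means without one was -0.31. Saline replicate 4 held the lowest value, and without it the difference on log2(FPKM + 1) was -0.15 with an exact permutation p of 0.0238. With any other single sample left out the exact permutation p was 0.159 to 0.397.

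Of the genes encoding the iron regulatory proteins, *Aco1* rose and *Ireb2* did not pass the test. *Aco1* (ENSMUSG00000028405, chromosome 4, 40143081 to 40198338, plus strand) encodes IRP1, which works as cytosolic aconitase when it holds an iron-sulphur cluster and binds RNA when it does not. Its FPKM was 15.8, 15.7, 14.9, 15.6 and 14.8 with saline and 16.42, 16.19, 16.996, 16.37 and 16.26 with StcE. All StcE samples were above all saline samples, and StcE replicate 3 stood above the other 4. The mean of 15.4 ± 0.472 FPKM rose by 7.12% to 16.4 ± 0.320 FPKM. The log2 fold change was 0.09 (SE 0.0260, 95% interval 0.04 to 0.15, limma adjusted p = 0.0390, exact permutation p = 0.00794). This call lay near the threshold. It was kept in 10 of the 22 alternative analyses (limma adjusted p from 0.0284 to 0.179), and was lost when any 1 of 8 samples was left out, that is, all but saline replicate 2 and StcE replicate 2. The fold change was 0.08 to 0.14 on the log2 scale in all 22.

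*Ireb2* (ENSMUSG00000032293, chromosome 9, 54863789 to 54912530, plus strand) encodes IRP2, which has no enzyme activity and is removed by protein degradation when iron is plentiful. Its FPKM was 9.38, 9.44, 9.33, 9.73 and 9.28 with saline and 9.29, 9.12, 9.54, 9.86 and 9.67 with StcE. The highest and the lowest sample were both StcE samples. The means of 9.43 ± 0.175 and 9.49 ± 0.294 FPKM differed by 0.01 on the log2 scale (95% interval -0.05 to 0.07, limma adjusted p = 0.879).

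**Figure D3:**
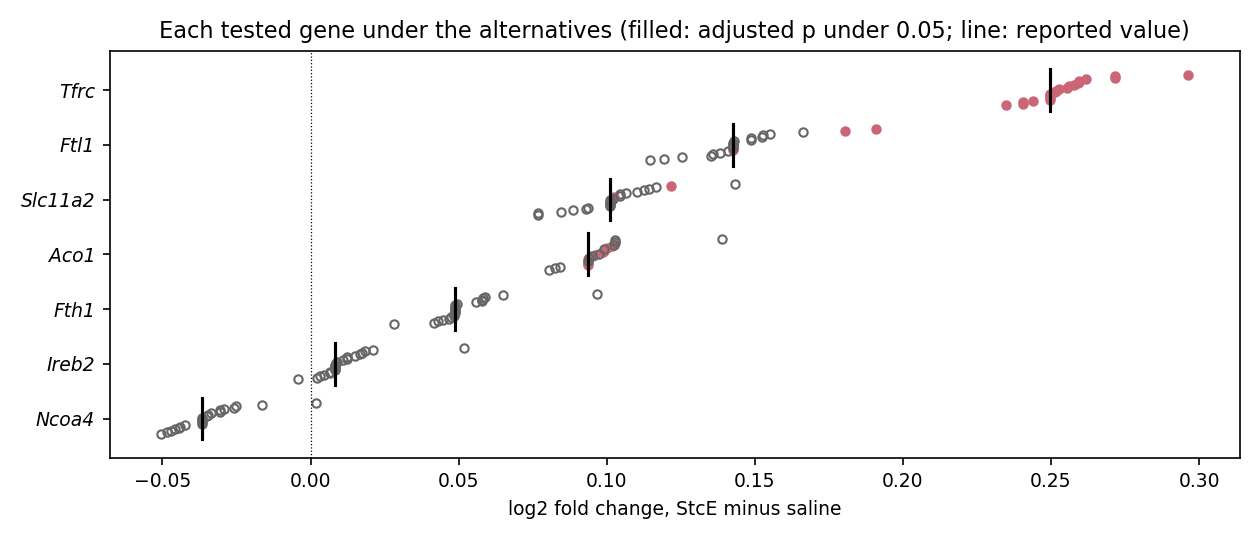
Log2 fold change (StcE minus saline) of the 7 tested genes under each of 22 alternative analyses, filled where the limma adjusted p was under 0.05 and open where it was not, with a black line at the reported value. *Tfrc* is filled in all 22, *Aco1* in 10, *Ftl1* in 3, *Slc11a2* in 2 and the other genes in 0.

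In level, the ferritin genes stood far above the rest. By mean FPKM over 10 samples the order was *Fth1* (1933), *Ftl1* (1559), *Tfrc* (34.6), *Aco1* (15.9), *Ireb2* (9.46), *Slc11a2* (6.78), *Ncoa4* (4.10), *Steap3* (0.871) and *Slc40a1* (0.450). *Fth1* and *Ftl1* ranked 5 and 6 in the whole table. No neighbours in this order shared values in any sample, so that the order was the same in all 10.

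In this order 2 steps depend on the gene length used, *Fth1* to *Ftl1* (ratio of means 1.24) and *Steap3* to *Slc40a1* (1.94). The FPKM of *Fth1* did not give whole fragments with the annotated exon total of 3469 bases. The shortest length that gave them was 866 bases, and this length was used. A longer one would raise the level of *Fth1* per mRNA length. The exon totals of the other 8 genes gave whole fragments. When levels were expressed per length of the principal mRNA, a choice made after seeing the data, *Ftl1* (2158) came before *Fth1* (1801) and *Slc40a1* (1.20) before *Steap3* (0.965), and the ratio of *Fth1* to *Ftl1* went from 1.24 to 0.835. *Slc11a2* (9.76) and *Ncoa4* (9.44) were then also close. These lengths are the same in both groups and leave the ratio of StcE to saline as it is. The filter and the weight of the pseudocount do depend on them. Per mRNA length *Slc40a1* had 1.33 with saline and 1.07 with StcE, above the filter value of 1. No test was made on this scale.

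Ratios within a sample do not depend on how samples were scaled. The FPKM of *Tfrc* per 1000 FPKM of *Fth1* was 16.3, 15.9, 17.1, 17.5 and 16.2 with saline and 17.95, 19.4, 19.0, 20.1 and 19.5 with StcE. The groups did not overlap, with means of 16.6 ± 0.675 and 19.2 ± 0.788. The groups were already apart for *Tfrc* itself, so this ratio is no separate support. Against *Ftl1* the groups overlapped (21.3 ± 1.44 and 23.1 ± 1.00 per 1000). The ratios of *Tfrc* to the ferritin genes were added to the planned ratios, which follow and all overlapped.

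The ratio of the ferritin chains, *Fth1* to *Ftl1*, was 1.276, 1.391, 1.248, 1.322 and 1.190 with saline and 1.192, 1.183, 1.248, 1.164 and 1.227 with StcE. The groups overlapped, at 1.29 ± 0.0760 and 1.20 ± 0.0342. The ratio of *Ireb2* to *Aco1* was 0.615 ± 0.0155 and 0.577 ± 0.0194, and that of *Tfrc* to *Slc40a1* was 69.0 ± 26.3 and 94.8 ± 9.57, both with overlap. No test was made on ratios.

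**Figure D4:**
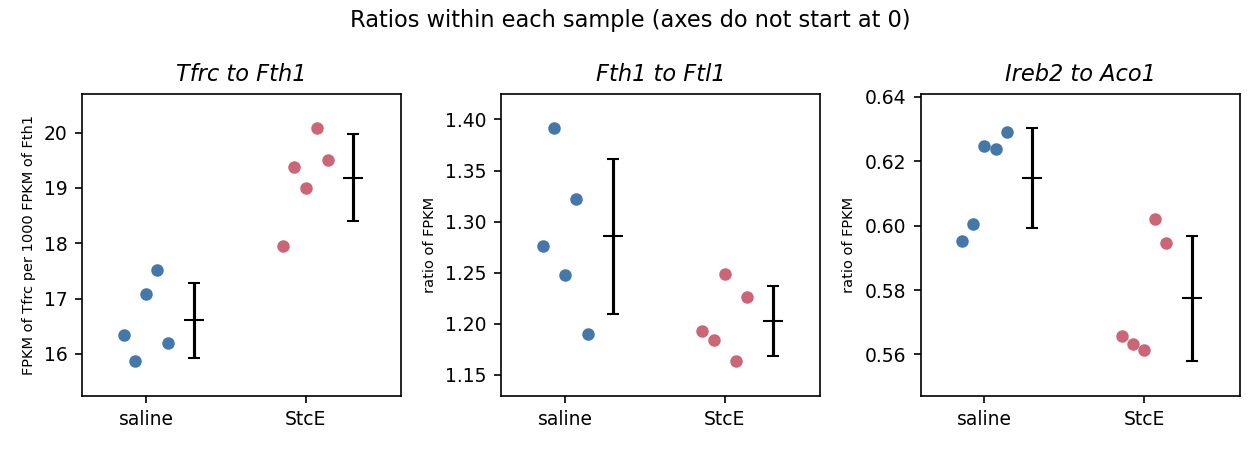
Ratios of FPKM within each sample for 3 pairs of genes, with saline samples in blue, StcE samples in red, the mean and SD of each group in black and axes that do not start at 0. Only for *Tfrc* to *Fth1*, among the 3 shown, do the groups stand apart (15.9 to 17.5 and 17.95 to 20.1 per 1000). That ratio was not planned, and the planned ratio of *Tfrc* to *Slc40a1*, whose groups overlapped, is not drawn.

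After the group means were taken away, the tested genes whose log2 values most resembled those of *Tfrc* over the 10 samples were *Pop1* (Pearson r = 0.934), *Mphosph10* (0.915) and *Ppp1r7* (0.904). For *Aco1* they were *Gm43460* (0.950), *AI606473* (0.920) and *Amigo2* (0.919). These are the highest values over all tested genes, share libraries and depth, and are given as a description. Between the ferritin genes r was 0.697, and *Tfrc* and *Fth1* had an r of -0.01.

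Around the 9 genes, 8 further lists of iron genes held 75 names, of which 69 had a row and 55 could be tested. Of these, 3 were higher and 2 lower with StcE past the threshold (9.09%), beside 11.9% of all genes tested, and their median log2 fold change was -0.00196. In limma no gene was past the threshold among 21 tested genes of iron-sulphur cluster assembly, 8 of haem synthesis and 4 of other uptake routes and ferrireductases. At an unadjusted p under 0.05 the counts in these lists were 2, 0 and 3, beside 27.8% of all genes tested, and limma's voom on the recovered fragments called 0, 0 and 1, beside 1494 of 10448 genes. Lists, like the 9 genes, are described by counts and were not tested as sets.

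**Figure D5:**
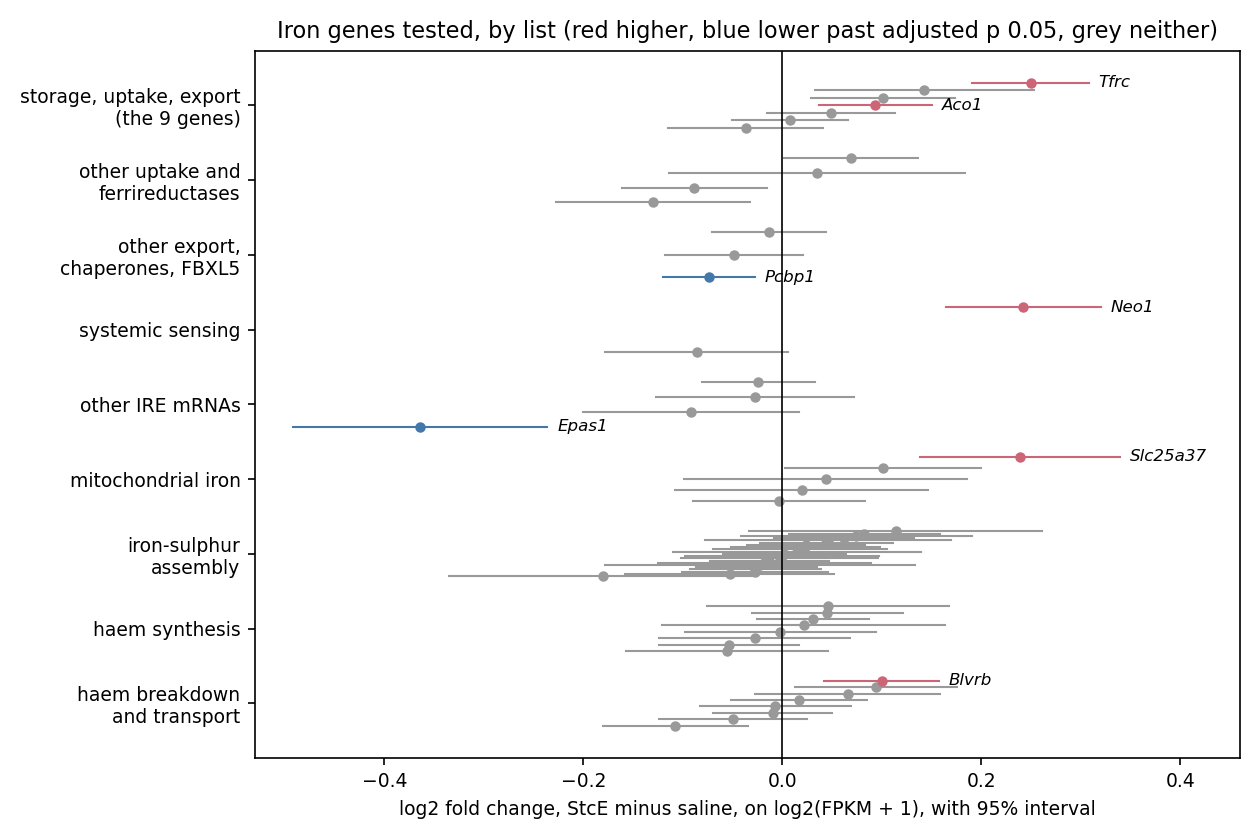
Log2 fold change (StcE minus saline, on log2(FPKM + 1)) with its 95% interval for the 62 tested genes of all 9 iron lists, by list, in red where higher and in blue where lower past a limma adjusted p of 0.05 and in grey otherwise. The 7 genes with names are those past the threshold, from *Epas1* at -0.36 to *Tfrc* at 0.25, and most grey points lie within 0.1 of 0.

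Among other genes of uptake, *Slc39a14* and *Slc39a8* encode transporters of the ZIP family that also carry iron not bound to transferrin. *Slc39a14* had 4.48 ± 0.150 FPKM with saline and 4.74 ± 0.138 with StcE (limma adjusted p = 0.172). *Slc39a8* had 1.16 ± 0.0525 and 0.972 ± 0.0556 FPKM, and its groups did not overlap, but the log2 difference of -0.13 (-0.25 as the log2 ratio of the means without a pseudocount) did not pass the test (limma adjusted p = 0.0825).

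In the list of other export, chaperone and IRP turnover genes, *Pcbp1* fell. Its product hands iron to ferritin, and the saline mean of 273.9 ± 5.05 FPKM compared with 260.2 ± 4.54 after StcE, with no overlap and a log2 fold change of -0.07 (SE 0.0211, limma adjusted p = 0.0427). The call was kept in 7 of 22 alternative analyses. *Pcbp2*, of the same family, had 47.2 ± 1.63 and 46.8 ± 0.821 FPKM (limma adjusted p = 0.784). *Fbxl5*, which marks IRP2 for degradation, had 6.94 ± 0.204 and 6.68 ± 0.273 (limma adjusted p = 0.349). The ferroxidase genes that work with ferroportin were below the filter, *Heph* at 0.292 and 0.296 FPKM and *Cp* at 0.0125 and 0.0115.

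Outside the 9 genes, *Neo1*, a receptor that takes part in the hepatic control of hepcidin and also binds guidance cues, had the lowest adjusted p of the iron lists, while *Epas1* had the larger fold change. It had 7.32 to 8.06 FPKM with saline and 8.73 to 9.67 with StcE, means of 7.69 ± 0.333 and 9.28 ± 0.389, and a log2 fold change of 0.24 (SE 0.0356, limma adjusted p = 0.00153). *Slc25a37*, encoding the mitochondrial iron importer mitoferrin-1, rose from 9.52 ± 0.481 to 11.4 ± 0.765 FPKM (log2 fold change 0.24, SE 0.0458, limma adjusted p = 0.00654), although the highest saline sample (10.33) was above the lowest StcE sample (10.28), and other genes hold copies of 9.15% of this transcript.

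*Epas1*, the gene of the hypoxia-inducible factor HIF-2α, belongs to the list of other mRNAs described to carry an iron-responsive element, and fell. It had 56.6 to 66.8 FPKM with saline and 42.1 to 51.2 with StcE, means of 61.8 ± 4.08 and 47.8 ± 3.88, and a log2 fold change of -0.36 (SE 0.0584, limma adjusted p = 0.00246). The letters searched here were not in its annotated UTRs. *Epas1* is also a gene of endothelial identity, and why it fell was not tested.

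Of the genes of haem, 0 of 8 tested in synthesis were past the threshold. In breakdown and transport 1 of 8 was, beside 11.9% of all genes tested. At an unadjusted p under 0.05 the counts were 0 and 3, beside 27.8% of all genes tested. Limma's voom on the recovered fragments called 0 and 1, beside 1494 of 10448 genes. *Blvrb*, a biliverdin reductase, rose from 13.5 ± 0.388 to 14.5 ± 0.328 FPKM (log2 fold change 0.10, SE 0.0263, limma adjusted p = 0.0311), a call kept in 13 of 22 alternative analyses. *Hmox1*, the inducible enzyme that releases iron from haem, had 263.7 ± 8.34 and 261.9 ± 7.01 FPKM (limma adjusted p = 0.855). *Alas1*, which starts haem synthesis, had 13.99 ± 0.444 and 14.31 ± 0.208 (limma adjusted p = 0.483), and *Fech*, which inserts iron into the ring, had 10.5 ± 0.655 and 10.1 ± 0.559 (limma adjusted p = 0.477).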

How the data were processed

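bEnd.3 cells given saline or StcE were profiled by bulk RNA-seq of poly-adenylated RNA in dUTP (strand-specific) libraries. Per the submitters' processing notes, HISAT2 2.0.5, featureCounts 1.5.0-p3, DESeq2 1.32.0 and the mm10 build were used. How multi-mapping fragments were treated is not given in the sources used here. The authors deposited FPKM for 27024 named rows, and 22874 further rows were empty. After multiplication by the exon length in GENCODE vM21, 96.6% of values above 0 came out within 0.05 of a whole fragment.

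Treatment was the only term in a fit of log2(FPKM + 1) by limma (version 3.58.1, under R 4.3.3), using lmFit and then eBayes with trend. Genes below a mean FPKM of 1 were left out, and p-values were adjusted by Benjamini-Hochberg over the remaining 11062. The count test the study used was not the main test, since the files hold FPKM. Limma's voom on recovered fragments was an alternative and called 1494 of 10448 genes. Single genes were also tested by exact two-sided permutation. BLAST 2.17.0 was used to look for copies (identity of 95% or more, 150 bases or longer). The 95% intervals come from the limma fit and measure the spread between samples.

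The 9 genes and the lists were chosen with earlier results of these data known. All 9 are named, as are the genes past the threshold in 8 other iron lists and *Hmox1*, *Slc39a14*, *Slc39a8*, *Fbxl5*, *Pcbp1*, *Pcbp2*, *Heph*, *Cp*, *Alas1* and *Fech* whatever their result. *Bmp6*, *Steap2* and the copies of *Ftl1* and *Ncoa4* are named outside this rule, with their values known. Alternatives were another pseudocount, 2 lower filters, 3 scalings, voom, 2 forms of eBayes, array weights, a replicate block and each sample left out. No 2 samples of a group agreed within sampling noise (chi-square per degree of freedom of 3.05 or more in every pair).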

Additional observations from a re-analysis of the deposited data

Results flagged for a closer look

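Among the named genes, 23 genes in 2 groups (46 groups of 5 samples) were examined for a sample far from the others of its group, and 3 were found, where chance gives about 1 in 20 groups (2.3). For *Aco1*, StcE replicate 3 was at 16.996 FPKM while the other StcE samples lay between 16.19 and 16.42, and without it the call was lost (log2 fold change 0.08, limma adjusted p = 0.0970). For *Slc39a14*, StcE replicate 2 was at 4.986 FPKM and the others between 4.653 and 4.717. For *Alas1*, saline replicate 2 was at 13.22 FPKM and the others between 14.09 and 14.38. None of these differences was traced to a cause.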

How the results depend on the processing

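The fold change of *Tfrc* kept its direction and its call in all 22 alternatives (limma adjusted p from 9.7e-06 to 0.0104). *Fth1*, *Ireb2* and *Ncoa4* passed the threshold in 0 of 22. *Fth1* ranged from 0.0282 (without StcE replicate 1) to 0.0968 (upper-quartile scaling). *Ireb2* turned to -0.00415 without StcE replicate 5, and *Ncoa4* was -0.0164 without StcE replicate 3 and turned to 0.00194 with upper-quartile scaling. *Aco1* was not past it with no filter (0.09364, limma adjusted p = 0.0596), with scaling by the upper quartile (0.139, 0.0523), or in the 8 samples with shared numbers fitted without a block (0.1029, 0.0751), and its fold change with samples left out was 0.08045 to 0.1026 on the log2 scale. *Ftl1* passed it with upper-quartile scaling (0.1909, limma adjusted p = 0.0305) and voom (0.1427, 0.0349), and ranged from 0.1145 to 0.1804 with samples left out. *Slc11a2* passed it with array weights (0.1024, limma adjusted p = 0.0465) and ranged from 0.08449 to 0.1218 with samples left out. *Pcbp1* kept its call in 7 of 22 alternatives, *Blvrb* in 13, *Epas1* and *Slc25a37* in 21 and *Neo1* in 22. The causes of these changes were not tested.

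Of the 9 genes, 1 instead of 2 was past the threshold, and 1 higher, with no filter and in the same 8 samples without the block, and 1 to 2 with samples left out. With voom (*Ftl1* added) and with array weights (*Slc11a2* added) 3 were. The count over all genes, 1320 (611 higher), was 801 (392 higher) with no filter, where 27024 rows were tested. With samples left out it was 793 to 1255 (384 to 588 higher), being 793 without StcE replicate 3 and 838 without saline replicate 1. Of the 5 calls in the other iron lists, 3 of them higher, 3 to 5 (2 to 3 higher) were made with samples left out, and 5 higher with upper-quartile scaling. *Fth1* to *Ftl1* was 0.8348 per mRNA length.

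Replicate numbers did not pair the samples, with correlations of same-numbered samples from -0.0966 to 0.0538. The replicate block over 8 samples left 349 genes past the threshold (187 higher), 1 of the 9 genes (*Tfrc*, higher) and 1 in the other iron lists (*Neo1*, higher), with *Aco1* at 0.1029 (limma adjusted p = 0.179). *Slc40a1* and *Steap3* had at most 157 and 170 fragments in a sample, which limits what their values can show.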

Other observations

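*Bmp6*, a ligand that endothelial cells of the liver release to induce hepcidin, was below the filter, and its values are given because its groups stood far apart. It had 0.548 to 1.09 FPKM with saline (mean 0.830 ± 0.222, n = 5) and 0.293 to 0.407 with StcE (mean 0.341 ± 0.0529, n = 5). The log2 difference was -0.44 on log2(FPKM + 1), with an exact permutation p of 0.00794. That p follows from the separation for which the gene was picked and adds no support. Among all genes tested 10.7% had groups that did not overlap, and rows below the filter were not counted. At this level the pseudocount mutes the change. Without it the log2 ratio of the means was -1.28, and the mean fell by 58.9%. It was past the threshold of limma when the filter was lowered to a mean FPKM of 0.1 and when it was removed. *Steap2*, a ferrireductase gene of the same family as *Steap3*, had 4.46 ± 0.197 FPKM with saline and 4.13 ± 0.115 with StcE, with no overlap between the groups and a limma adjusted p of 0.111.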
